A study of Mus musculus with 6 samples.

Results

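The 8 genes described here are 6 loci of the muscle microRNAs (Mir206, Mir133b, Mir1a-1, Mir133a-2, Mir1a-2 and Mir133a-1) and 2 imprinted long noncoding RNAs, H19 and Meg3. They were picked by symbol from the deposited expression table, all 8 had a probe set, and they are 8 of the 23279 named genes. They were named with values of these same arrays in view, so their levels and differences are given as a description with no test. Expression was profiled in primary myoblasts, the precursor cells of skeletal muscle fibres, from limb muscles of C57bl6N mice, with 3 activated and 3 control cultures and 1 Affymetrix array per culture. All cultures carried Pax7-CreERT2, a tamoxifen-inducible recombinase driven by the Pax7 promoter of muscle stem cells, and 1 beta-catenin allele with loxP sites around exon 3. Removal of that exon leaves a beta-catenin, the effector of Wnt signalling, that is not marked for degradation. After 5 passages in Ham F10 with 20% FBS and 2 ng/ml bFGF, cells were differentiated for 24 hours in DMEM with 2% HS. The activated cultures received 4-OH tamoxifen dissolved in ethanol, and the control cultures received ethanol. No culture without the recombinase or the loxP allele is among the samples, so recombination and the drug itself cannot be told apart. The cultures are called independent, but the labels leave out how many mice they came from, and each p-value is set against the variation among these cultures alone.

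MicroRNAs are cut from hairpin precursors and repress messenger RNAs that pair with their seed, the bases near the 5′ end. In skeletal muscle, miR-1 and miR-206 form a family with a common seed on their 3p arms and promote differentiation of myoblasts, while miR-133 is encoded in clusters with them and is known for effects on myoblast proliferation through the transcription factor Srf. H19 is transcribed from the maternal chromosome beside the growth factor gene Igf2, and Meg3 is the maternal noncoding RNA of the Dlk1 domain, a region that holds a large microRNA cluster; both RNAs are abundant in developing muscle.

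The mature microRNAs of the locus with the clearest separation of the groups are shown first, with miR-1a-1-5p for comparison. Sequences are from RefSeq (GRCm38.p6), where 3 of the 6 microRNA loci had a mature sequence. They run 5′ to 3′, and capitals mark the seed, bases 2 to 8. The miR-206 arms lie on the plus strand at chr1:20679055-20679076 and chr1:20679017-20679039, the miR-133b arms at chr1:20682834-20682855 and chr1:20682797-20682818 and miR-1a-1-5p at chr2:180389057-180389079.
miR-206-3p: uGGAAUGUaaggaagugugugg
miR-206-5p: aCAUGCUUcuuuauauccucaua
miR-133b-3p: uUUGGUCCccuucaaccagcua
miR-133b-5p: gCUGGUCAaacggaaccaaguc
miR-1a-1-5p: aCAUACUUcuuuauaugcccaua
Only the 5p arms were compared, not the 3p arms that carry the family seed. The 5p arms of miR-206 and miR-1a-1 were identical at 20 of 23 positions. Counted from the 5′ end with the miR-206 base first, they differed by G5A, C17G and U19C, and G5A lies in the seed of the 5p arm. The arrays measure RNA of the locus from total RNA and do not separate the mature arms from the precursor.

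Values are the deposited log2 expression levels, and a difference of 1 is a 2-fold difference. Array medians lay between 4.04 and 4.36. The spread of each array (SD) was 1.88, 2.12 and 1.96 in activated replicates 1, 2 and 3 and 1.72, 2.01 and 1.76 in control replicates 1, 2 and 3. No gene passed an adjusted p of 0.05 (limma, 0% of 23279), while 1034 genes (4.44%) were higher and 796 (3.42%) lower at an unadjusted p under 0.05. When replicate number was added as a block, 31 genes (0.133%) passed. Of all genes 59.7% were lower as deposited, 51.6% after quantile normalization, 50.2% after cyclic loess and 43.0% after median centring. The median difference of all genes was -0.08 as deposited and 0.05 after median centring, which split the unadjusted calls into 1342 higher and 518 lower. The platform gives no detection calls in the sources used here, so a low value cannot be read as present or absent.

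Mir206 and Mir133b, neighbours on chromosome 1, were higher in every activated culture than in any control culture. That holds for 2 of the 8 genes, beside 5.40% of all genes, and none of the 8 lay below in the same way, beside 7.40%; the genes were picked with this contrast in view, so nothing is read from these counts. The other microRNA loci and both long noncoding RNAs overlapped between the groups. Of the 8 differences 7 were above 0, with a median of 0.58. In bulk RNA, fewer cells of a type and less RNA per cell cannot be told apart.

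Mir206 (Entrez 387202), the locus of the microRNA found almost entirely in skeletal muscle, was at 4.75, 4.46 and 4.89 in activated replicates 1, 2 and 3 and at 3.45, 3.50 and 2.73 in control replicates 1, 2 and 3. The activated arrays stayed within a narrow band, and control replicate 3 was the lowest of the 6. The group means were 4.70 ± 0.22 in activated and 3.23 ± 0.43 in control cultures (SD, n = 3 each). The difference was 1.47 ± 0.28 (SE), or 2.77-fold. Within numbered pairs it was 1.30, 0.96 and 2.16, so each pair showed the same direction and the pair numbered 3 the widest gap. Its percentile among the genes of an array was 16.5 to 60.8, a rank of probe set signal that also carries probe affinity.

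Mir133b (Entrez 723817), which lies with Mir206 inside the RefSeq gene Lincmd1 (no probe set of that name was used here), was at 8.22, 7.83 and 9.47 in the activated arrays and at 6.91, 6.57 and 6.39 in the control arrays, in replicate order. Activated replicate 3 stood above the other activated arrays. Means were 8.50 ± 0.86 in activated and 6.62 ± 0.26 in control cultures (SD, n = 3 each), a difference of 1.88 ± 0.43 (SE) or 3.68-fold. Pair differences were 1.31, 1.26 and 3.08. Without any single array the difference stayed between 1.40 and 2.22. Its signal lay at percentiles 81.4 to 98.8 of the arrays. Over the 6 arrays Mir206 and Mir133b correlated at a Pearson r of 0.917, a description of points that share arrays and groups.

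**Figure D1:**
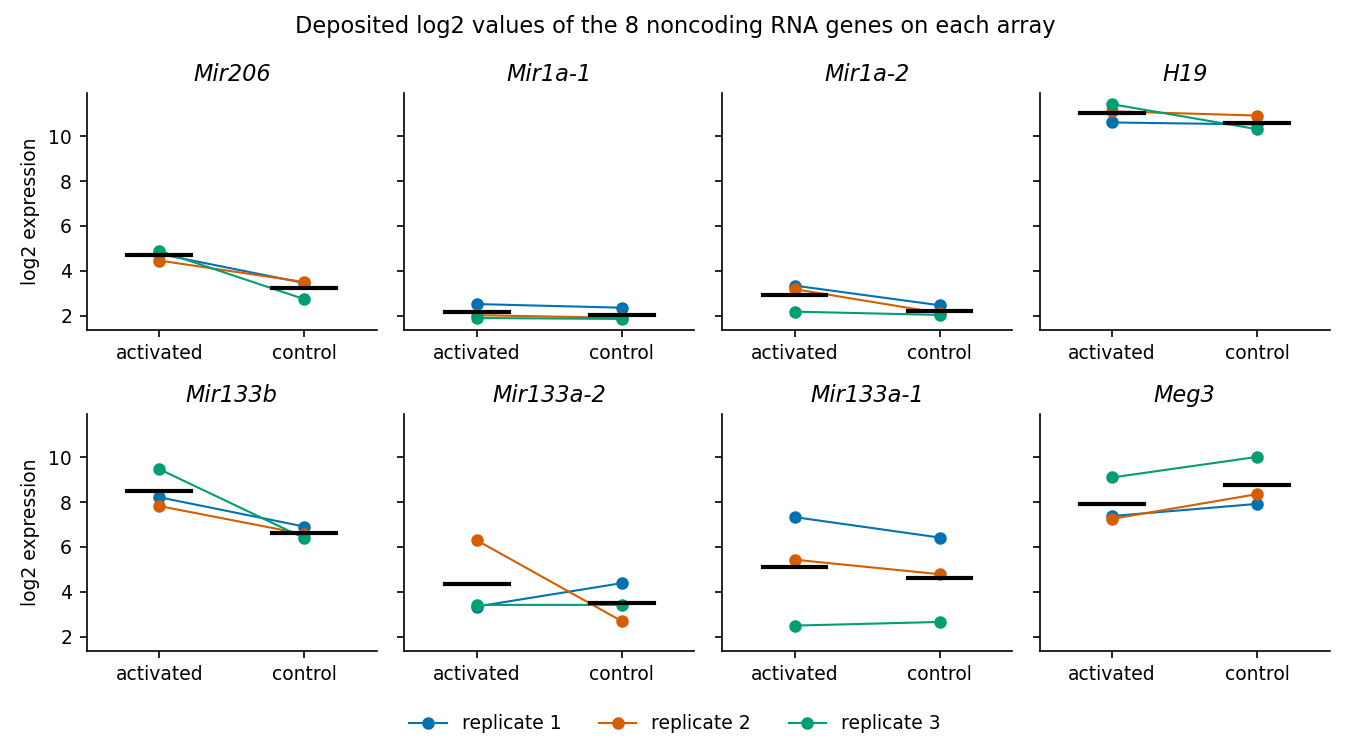
Deposited log2 expression (vertical axis) of each of the 8 genes in activated and control cultures, with points for single arrays, lines joining arrays of the same replicate number and black bars for group means. Mir206 and Mir133b separate the groups, while the Mir133a-1 lines are nearly parallel and span from 7.33 to 2.49 among the activated arrays alone.

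Mir1a-1 (Entrez 387136), on chromosome 2 with Mir133a-2, was at 2.51, 2.02 and 1.89 in activated and at 2.35, 1.90 and 1.85 in control replicates 1, 2 and 3. Both replicates numbered 1 were the highest of their groups, and the groups overlapped. The difference was 0.11 ± 0.26 (SE). All 6 values lay between percentiles 2.41 and 12.7 of their arrays, so the signal was dim throughout.

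Mir133a-2 (Entrez 723954) was at 3.34, 6.29 and 3.41 in activated and at 4.39, 2.68 and 3.42 in control replicates 1, 2 and 3. Activated replicate 2 stood far above the others, while the arrays numbered 3 were alike in both groups. Means were 4.35 ± 1.68 in activated and 3.49 ± 0.85 in control cultures (SD, n = 3 each). The difference of 0.85 ± 0.82 (SE) rests on that array: without activated replicate 2 it was -0.12. Pair differences were -1.04, 3.61 and -0.00. Mir1a-1 and Mir133a-2 both lie within the RefSeq gene Mir1a-1hg, their host transcript, and correlated at 0.0906 over the 6 arrays. Mir1a-1 was dim throughout and Mir133a-2 stood out on a single array, so nothing is read from this correlation. Mir1a-1hg itself differed by 0.36 ± 0.32 (SE; limma, adjusted p = 0.773).

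Mir1a-2 (Entrez 723959), on chromosome 18, was at 3.34, 3.18 and 2.18 in activated and at 2.46, 2.12 and 2.03 in control replicates 1, 2 and 3. Activated replicates 1 and 2 lay above all controls, and activated replicate 3 lay among them. The difference was 0.70 ± 0.34 (SE), or 1.62-fold, and it was above 0 in each pair, at 0.88, 1.06 and 0.15. Leaving out an array moved it between 0.48 and 1.06. The signal of Mir1a-2 was low, at percentiles 4.56 to 33.6 of the arrays.

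Mir133a-1 (Entrez 387151), beside Mir1a-2, was at 7.33, 5.43 and 2.49 in activated and at 6.42, 4.78 and 2.65 in control replicates 1, 2 and 3. The order was the same in both groups, with the arrays numbered 1 highest and those numbered 3 lowest. The range among activated arrays alone was 4.84 and among control arrays 3.77, against a difference between groups of 0.47 ± 1.32 (SE). Group accounted for 1.68% of its sum of squares and replicate number for 96.7%. A share by replicate number as large was found in 1.06% of genes. This pattern of Mir133a-1 was known when the genes were chosen, so nothing is read from that percentage. With replicate number as a block the SE was 0.26, and pair differences were 0.91, 0.65 and -0.16. Leaving out activated replicate 1 gave -0.66 and leaving out control replicate 3 gave -0.52, which leaves a numbered pair incomplete. With the block and a whole pair left out, an alternative chosen after seeing the data, the difference was 0.24, 0.37 and 0.78 without the arrays numbered 1, 2 and 3. Its percentile within an array ran from 14.7 to 90.2, from dim to bright. Mir133a-1 and Mir1a-2 correlated at 0.756.

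Over all genes the median share was 17.6% for group and 51.1% for replicate number, and replicate number had the larger share in 74.1% of genes and in 4 of the 8. Replicate number splits the arrays into more classes than group does. Its share is therefore the larger in most genes even where same-numbered arrays are unrelated, and the shares were not corrected for this. Group held most of the variation of Mir206 (87.4%) and of Mir133b (76.7%). Replicate number held most of that of Mir133a-1, of Mir1a-1 (94.6%) and of Meg3 (79.2%). The labels do not say what arrays with a common number share.

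**Figure D2:**
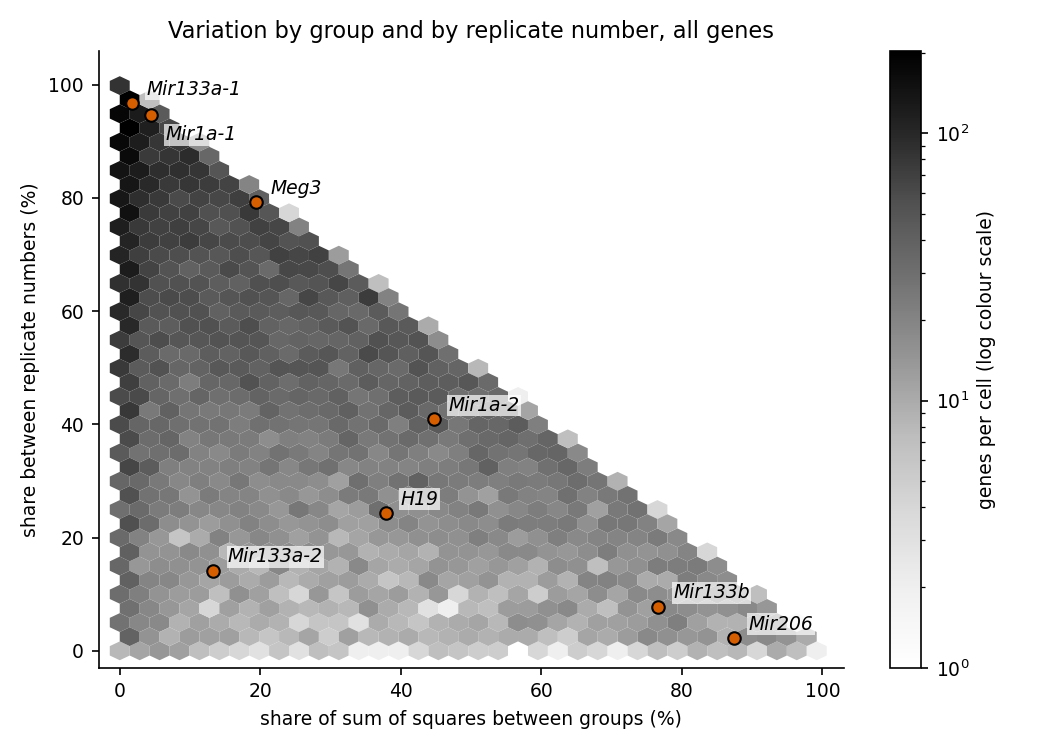
Share of the sum of squares over 6 arrays that lies between groups (horizontal axis, %) against the share between replicate numbers (vertical axis, %), with all genes as grey cells on a log colour scale and the 8 genes as orange points. Mir206 and Mir133b lie at the right, and Mir133a-1 and Mir1a-1 at the upper left.

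Mib1, the ubiquitin ligase that activates Notch ligands, spans both chromosome 18 loci in RefSeq. It was at 7.30, 7.40 and 7.78 in activated and at 6.69, 6.80 and 7.02 in control cultures. Its groups did not overlap, and the difference of 0.66 ± 0.23 (SE) did not pass (limma, adjusted p = 0.548). Unlike Mir133a-1 within it, Mib1 was highest in the arrays numbered 3. Mir1b, annotated at the same place as Mir1a-2 so that their signals may not be separable, was at 8.45, 8.47 and 6.18 in activated and at 6.08, 7.01 and 5.78 in control replicates 1, 2 and 3. Its difference was 1.41 ± 0.65 (SE; limma, adjusted p = 0.649), and the groups overlapped through activated replicate 3. Among 539 microRNA loci by symbol, the highest differences were those of Mir133b, Mir206 and Mir1b, while 386 loci were lower, with a median of -0.16. That median was -0.03 after median centring.

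On chromosome 1 the nearest measured gene on one side of the pair was Il17a, a cytokine gene, which differed by -0.12 ± 0.25 (SE; limma, adjusted p = 0.893). The nearest on the other side, 4930486I03Rik, differed by 0.28 ± 0.26 (SE; limma, adjusted p = 0.781) with overlapping groups. Pkhd1, the fibrocystin gene, is the next measured gene beyond it and was at 5.62, 5.48 and 3.88 in activated and at 3.68, 3.22 and 3.55 in control cultures. Its activated arrays all lay above the controls, by 1.51 ± 0.46 (SE; limma, adjusted p = 0.466). Here the arrays numbered 3 were the closest, whereas for Mir206 and Mir133b they were the farthest apart.

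H19 (Entrez 14955), on chromosome 7, had a bright signal on every array, at percentiles 99.7 to 99.9. It was at 10.62, 11.11 and 11.43 in activated and at 10.53, 10.92 and 10.32 in control replicates 1, 2 and 3. Only activated replicates 2 and 3 exceeded all controls. Means were 11.05 ± 0.41 in activated and 10.59 ± 0.31 in control cultures (SD, n = 3 each), a difference of 0.46 ± 0.29 (SE) or 1.38-fold. Pair differences were 0.09, 0.19 and 1.11, so most of it came from the arrays numbered 3. After cyclic loess the difference was -0.11, so its direction depends on the scaling.

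Igf2, the paternally expressed growth factor gene beside H19, was at 8.52, 9.67 and 8.23 in activated and at 7.92, 8.52 and 5.00 in control replicates 1, 2 and 3. Control replicate 3 was by far the lowest. The difference was 1.66 ± 0.88 (SE; limma, adjusted p = 0.693), and leaving out an array gave 0.59 to 2.34. H19 and Igf2 correlated at 0.652 over the arrays. Nctc1, a noncoding RNA gene next to H19, differed by 1.27 ± 0.52 (SE; limma, adjusted p = 0.621). Of 8 other measured genes of the domain, 4 were higher and 4 lower, with a median of 0.18, and none passed. Tnnt3, the fast skeletal troponin T gene, was higher in each pair, by 1.36 ± 0.41 (SE; limma, adjusted p = 0.451).

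Meg3 (Entrez 17263), on chromosome 12, was the only one of the 8 with a lower mean in activated cultures. It was at 7.38, 7.25 and 9.10 in activated and at 7.92, 8.36 and 10.02 in control replicates 1, 2 and 3. In both groups replicate 3 was the highest, and activated replicate 3 exceeded the controls numbered 1 and 2. Means were 7.91 ± 1.03 in activated and 8.76 ± 1.11 in control cultures (SD, n = 3 each). The difference was -0.86 ± 0.67 (SE), and with the replicate block its SE was 0.20. Each pair was lower in the activated culture, with differences of -0.54, -1.10 and -0.92. Under the other scalings the difference lay between -1.24 and -0.72.

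The Dlk1 and Meg3 domain had 49 other measured genes, of which 38 were lower and 11 higher, with a median of -0.33 beside -0.08 over all genes, and none passed. Of the 49, 38.8% (19) were lower in each of the 3 pairs and 6.12% (3) higher, beside 25.0% and 16.6% of all genes and 26.2% and 6.31% of all microRNA loci. Rian, the noncoding RNA downstream of Meg3, differed by -1.10 ± 0.58 (SE; limma, adjusted p = 0.692), and Dlk1, the paternally expressed Notch-like gene, by -0.27 ± 0.20 (SE; adjusted p = 0.754). Rtl1, a retrotransposon-derived gene of the domain, differed by -0.89 ± 0.43 (SE; adjusted p = 0.667). Meg3 and Rian correlated at only 0.283. Of the 44 microRNA loci 33 (75.0%) were lower as deposited, near the 71.6% of all 539 microRNA loci. After quantile normalization, cyclic loess and median centring 75.0%, 72.7% and 70.5% of the 44 were lower. For all 539 the shares were 59.7%, 57.7% and 53.2%, so the nearness holds only on the deposited scale. The median of the 44 was -0.34 as deposited and -0.20 after median centring. Mir453 differed by -1.61 ± 0.45 (SE; adjusted p = 0.411) and Mir679 by -1.31 ± 0.49 (SE; adjusted p = 0.581). In the opposite direction, Mir370 differed by 0.81 ± 0.27 (SE; limma, adjusted p = 0.504) and Mir409 by 0.62 ± 0.24 (SE; limma, adjusted p = 0.584). These loci were mostly dim, with a few such as Mir673 brighter, at 6.35 ± 0.40 in activated and 6.83 ± 0.70 in control cultures (SD, n = 3 each).

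**Figure D3:**
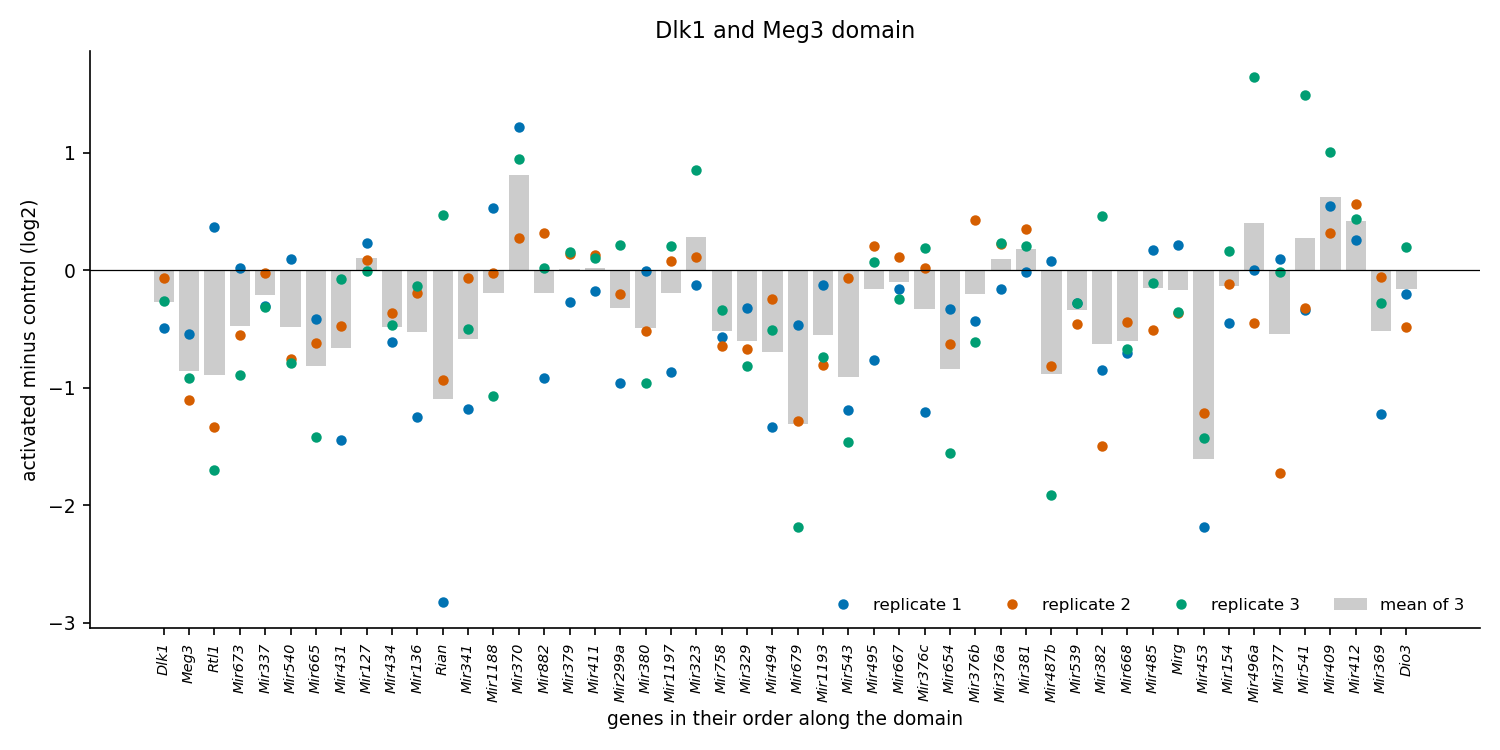
Difference of activated minus control on the log2 scale (vertical axis) for measured genes of the Dlk1 and Meg3 domain in chromosomal order, with grey bars for the mean and points for the 3 numbered pairs. Most bars lie below 0, Mir453 reaches -1.61, and Mir370 and Mir409 lie above 0.

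Lists of related genes were counted for context, beside the 59.7% of all genes that were lower on the deposited scale. Factors listed for the muscle microRNA loci had 10 higher and 3 lower of 13, with a median of 0.62. After quantile normalization 9 were higher with a median of 0.46, and after cyclic loess 8 with a median of 0.44. Median centring gave 12 higher with a median of 0.75. Mef2c, a muscle transcription factor, was at 10.66, 10.63 and 8.99 in activated and at 8.81, 8.47 and 6.89 in control cultures. It differed by 2.04 ± 0.62 (SE; limma, adjusted p = 0.465) and was the only list gene that passed with the replicate block (adjusted p = 0.0479). It did not pass with the block without the arrays numbered 1 (adjusted p = 0.262) or 2 (adjusted p = 0.193), and its adjusted p ran from 0.018 to 1.00 over all alternatives. Myog, the factor of terminal differentiation, differed by 2.22 ± 0.72 (SE; limma, adjusted p = 0.502), and Mef2a by 0.99 ± 0.26 (SE; adjusted p = 0.390). Myod1, the myoblast determination factor, differed by 0.16 ± 0.44 (SE; adjusted p = 0.918), and the sign was -0.19 after quantile normalization.

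Reported targets of miR-1 and miR-206 had 8 higher and 9 lower of 17, with a median of -0.05 that was 0.09 after median centring. Timp3, an inhibitor of matrix metalloproteinases and a reported miR-206 target, was at 8.43 ± 0.60 in activated and 4.03 ± 0.65 in control cultures (SD, n = 3 each). Its difference of 4.40 ± 0.42 (SE) was the highest of all genes. Its adjusted p (limma, adjusted p = 0.0848) was above the threshold and ran from 0.00877 to 0.662 over the alternatives. That value equalled the smallest adjusted p of all genes, but the adjustment can give the same value to several genes, so Timp3 need not rank first. Pola1, the DNA polymerase alpha subunit reported as a miR-206 target, differed by -1.72 ± 0.32 (SE; limma, adjusted p = 0.252), and its groups did not overlap. Hdac4, the histone deacetylase reported as a miR-1 target, differed by 0.18 ± 0.25 (SE; limma, adjusted p = 0.839), with a sign that turned to -0.054 after quantile normalization. Reported targets of miR-133 had 8 higher and 5 lower of 13, with a median of 0.23 that was -0.03 after quantile normalization. Srf among them differed by 0.67 ± 0.56 (SE; limma, adjusted p = 0.764), and Ccn2, a matricellular growth factor gene, by 0.60 ± 0.31 (SE; limma, adjusted p = 0.689).

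Hosts and overlapping transcripts had 4 higher and 2 lower of 6. Myh7, the slow myosin heavy chain gene that hosts Mir208b, differed by 2.15 ± 0.59 (SE; limma, adjusted p = 0.402). Mir208b itself differed by -0.02 ± 0.22 (SE; limma, adjusted p = 0.977), and is 1 of 4 further muscle microRNA loci measured, whose median was -0.11 with all 4 below 0. After median centring that median was 0.03 with 2 of 4 higher, and 2 were higher after cyclic loess and 1 after quantile normalization, so their direction turns with the scaling. Other microRNAs of myoblast growth had 6 higher and 16 lower (72.7%) of 22 as deposited, near the 71.6% lower of all 539 microRNA loci. After quantile normalization, cyclic loess and median centring 6, 6 and 9 of the 22 were higher. Under these scalings 59.7%, 57.7% and 53.2% of all 539 loci were lower. Among the 22, Mir29a differed by -1.41 ± 0.52 (SE; limma, adjusted p = 0.576) and Mir125b-1 by -1.24 ± 0.54 (SE; limma, adjusted p = 0.634). MicroRNA processing genes had 6 higher and 11 lower of 17, with a median of -0.12 that was 0.02 after median centring, and Ago2, the slicing Argonaute, differed by 0.77 ± 0.23 (SE; limma, adjusted p = 0.447). None of these passed with all 6 arrays and no block. With the block and without the arrays numbered 3, where 501 genes passed, 10 of the genes examined singly passed, Myh7 among them (limma, adjusted p = 0.00877). The others were Mef2c, Timp3, Pkhd1, Mir1b, Nctc1, Mir453, Uhrf1, Zdbf2 and Rgs5. Without activated replicate 3 alone and with no block, Myh7 (limma, adjusted p = 0.0477) and Timp3 (limma, adjusted p = 0.0479) also passed.

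Imprinted genes of other domains had 14 higher and 18 lower of 32 (20 higher after median centring), with Zim1, a zinc finger gene, at -1.45 ± 0.29 (SE; limma, adjusted p = 0.256) and Zdbf2 at 1.47 ± 0.50 (SE; limma, adjusted p = 0.526). Genes of imprint maintenance had 4 higher and 10 lower of 14 as deposited, and 6 higher under each of the 3 other scalings. Their median was -0.26 as deposited, -0.23 after quantile normalization, -0.18 after cyclic loess and -0.12 after median centring. Dnmt1, the maintenance DNA methyltransferase, was at 6.75 ± 0.57 in activated and 8.03 ± 0.74 in control cultures (SD, n = 3 each; limma, adjusted p = 0.533), and Uhrf1, its recruiting partner, differed by -1.34 ± 0.60 (SE; limma, adjusted p = 0.639). Widely expressed long noncoding RNAs had 5 higher and 6 lower of 11, with a median of -0.04 that was 0.10 after median centring, and Gas5 differed by -0.73 ± 0.33 (SE; limma, adjusted p = 0.647).

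**Figure D4:**
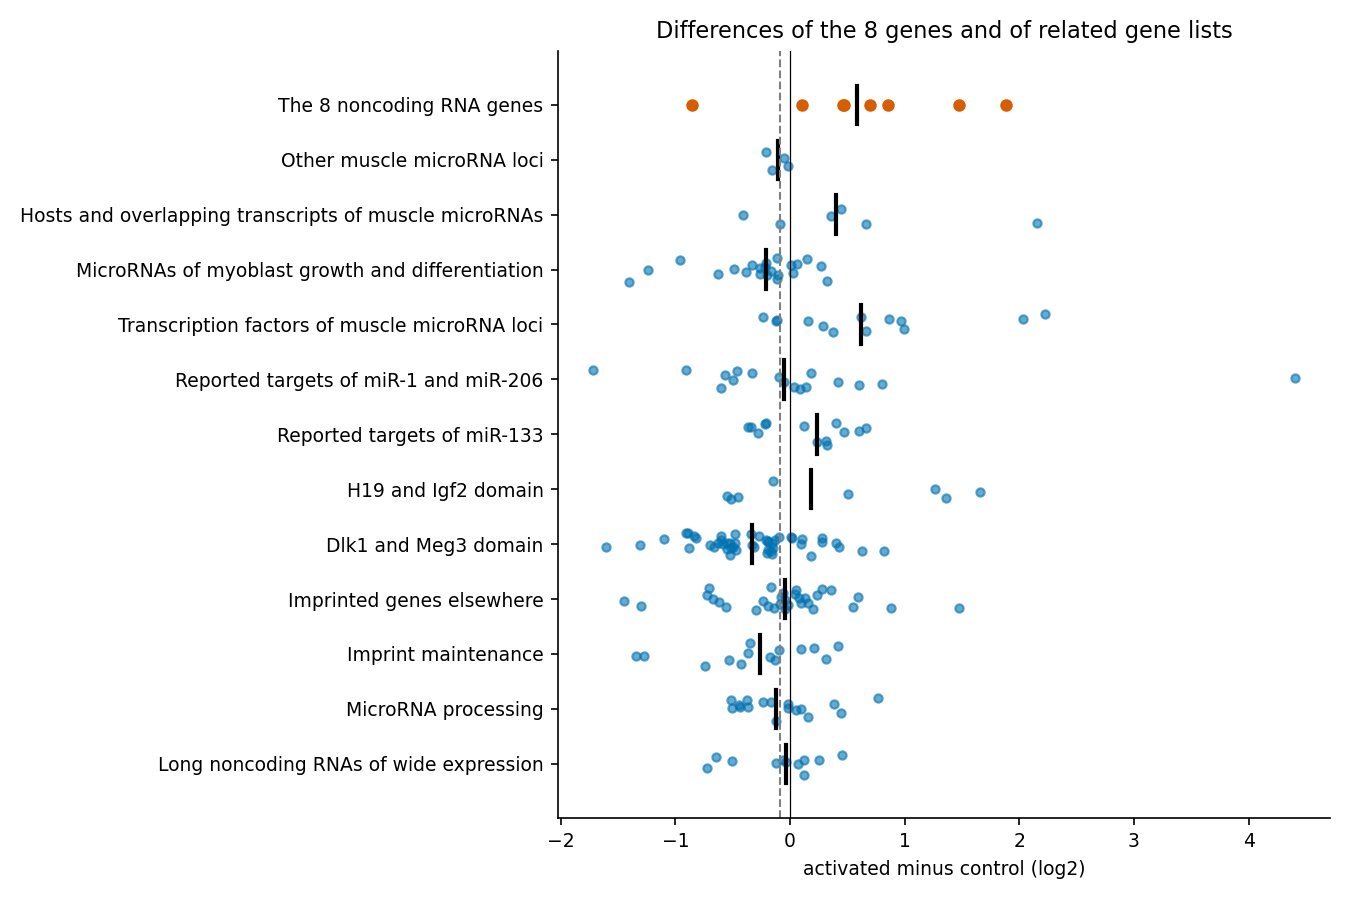
Differences of activated minus control on the log2 scale (horizontal axis) for the 8 genes (orange, top) and the genes of each related list (blue), with black ticks for medians, a dashed line at the median of all genes and a thin line at 0. On the deposited scale the transcription factor list has a median of 0.62 and the Dlk1 and Meg3 domain -0.33.

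Of the myoblast and myocyte markers 9 of 10 were higher and none passed, with a median of 0.92. After quantile normalization 8 were higher with a median of 0.59, and after cyclic loess 8 with a median of 0.56. As deposited, only Pax7 was below 0, at -0.60 ± 0.31 (SE; limma, adjusted p = 0.688), and it was lower in each pair. The summed level of these markers was 12.97 to 13.96 in activated and 11.93 to 13.04 in control cultures on the log2 scale. Desmin (Des), the muscle intermediate filament gene, differed by 1.56 ± 0.36 (SE; limma, adjusted p = 0.325). Of markers of other cells, 7 of 9 fibroblast, 7 of 8 endothelial, 7 of 8 leukocyte and 5 of 8 smooth muscle and pericyte markers were below 0, beside 59.7% of all genes. Under the 3 other scalings 1 of 8 endothelial and 2 or 3 of 8 leukocyte markers were above 0, but 3 to 5 of 9 fibroblast and 4 or 5 of 8 smooth muscle and pericyte markers were. The summed fibroblast level was 7.38 to 8.31 in activated and 7.95 to 8.45 in control cultures, and the smooth muscle and pericyte level 9.89 to 11.06 in activated and 10.04 to 11.19 in control cultures. The endothelial level was 6.22 to 6.49 in activated and 6.60 to 6.79 in control cultures, and the leukocyte level 6.91 to 7.53 in activated and 7.03 to 8.20 in control cultures. A log2 table without detection calls has no true zero, so no marker can be called absent. The part of cell makeup or of the stage of differentiation in the values of the 8 genes was not tested.

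The genes most like each locus across the 6 arrays were taken among those with a mean of at least 5 and an SD of at least 0.5. They were Samd12 (r = 0.991), Palm2 and Ubr3 for Mir206, and Sema5a (0.963), Frmpd1 and Scamp5 for Mir133b. For Mir133a-1 they were Tigd2 (0.998), Cdkn2aip and Mettl5, and for Mir1a-2 they were Sgms1 (0.992), B3galt2 and Thnsl1. Tigd2 was at 6.52, 5.74 and 4.46 in activated and at 6.14, 5.45 and 4.39 in control replicates 1, 2 and 3, the same order as Mir133a-1. Mir133a-2 was matched best by Tcap (0.986), the gene of a sarcomeric protein, followed by Mrpl9 and Slpi. Tcap too was highest in activated replicate 2, at 8.06, with the other 5 arrays between 5.24 and 6.12. The best matches were Gm15051 (0.950), Rnf138 and Cacng4 for Mir1a-1. For H19 they were Scmh1 (0.989), Enc1 and Mrps21, and for Meg3 they were Bahcc1 (0.999), Dock6 and Dlg5. With 6 arrays and a search over so many genes, these correlations only describe these arrays.

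**Figure D5:**
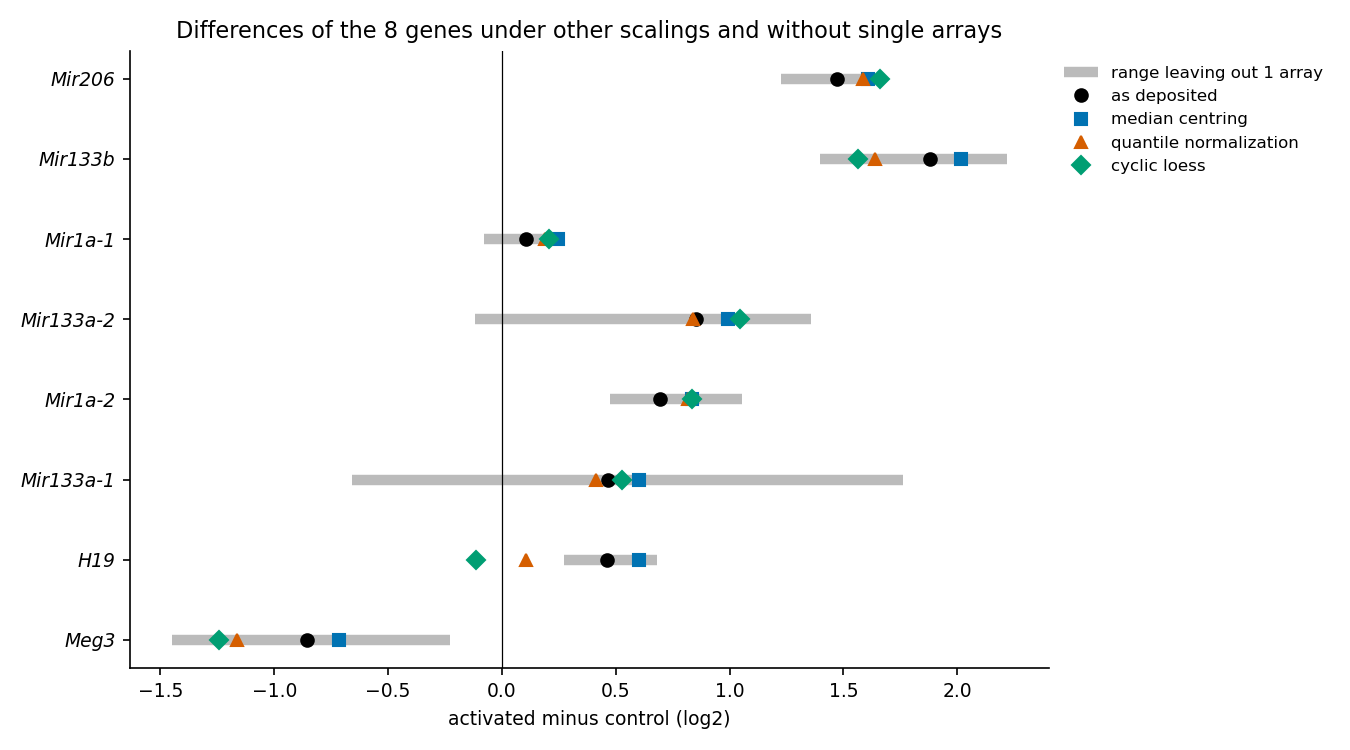
Difference of activated minus control on the log2 scale (horizontal axis) for the 8 genes under the deposited scale and 3 other scalings (symbols), with grey bars for the range when single arrays are left out. Mir206, Mir133b and Mir1a-2 stay above 0 and Meg3 below 0, while the bars of Mir133a-1, Mir133a-2 and Mir1a-1 cross 0 and the loess value of H19 lies at -0.11.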

How the data were processed

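RNA of 3 activated and 3 control cultures was measured on 1 array each. The deposited values are log2 expression, and RMA and Partek are named for them in the submitters' processing notes. Neither the array design nor the genome build is given in the sources used here. The platform annotation gave 1 symbol to 23281 of 24479 probe sets, several to 0 and none to 1198; the 2 symbols with several probe sets kept the brighter one, leaving 23279 genes, of which 23155 had their Entrez number in the RefSeq table (GRCm38.p6). limma 3.58.1 in R 4.3.3 fitted group as the only term to all of them, using limma's moderated two-sided test with p-values adjusted after Benjamini and Hochberg, and was tested on simulated data. No pseudocount or filter on dim genes was applied. The number of arrays limits the precision.

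The members and the 17 related lists were chosen with earlier results of these data known. The text names, per list, genes among the 2 to 4 with the smallest limma p, with the hosts and the nearest neighbours of the 8 genes and, per gene, the 3 genes with the highest Pearson r over the 6 arrays among genes with a mean of at least 5 and an SD of at least 0.5. Myod1, Hdac4, Srf and Rian were added after their values were seen. Myog, Mir208b and Pax7 were also named by choice rather than by rank. The 30 list symbols with no probe set of that name here, older synonyms included, were not analysed.

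Replicate numbers come from the sample titles. Deviations from the group means correlated between same-numbered arrays at 0.38, 0.487 and 0.45, all above the 0.1 taken as the criterion, so the numbers were treated as pairs; the labels do not say what the numbers share. The fit with the replicate block is given where it changes a call. Sequences are from RefSeq, GRCm38.p6. The alternatives were 3 other scalings, a filter on dim genes (mean of at least 4), a trended prior variance, averaged probe sets, the replicate block and leaving out each array or pair.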

Additional observations from a re-analysis of the deposited data

How the results depend on the processing

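With the replicate number as a block (replicate block), 31 genes passed an adjusted p of 0.05, against 0 as deposited and 0 with the block after quantile normalization; leaving out an array gave 0 to 28, with 28 without activated replicate 3. With the block and without a numbered pair, an alternative chosen after seeing the data, the count was 0 to 501, with 501 without the arrays numbered 3, where 10 genes examined singly passed. Genes at an unadjusted p under 0.05 numbered 1830 as deposited, 3875 with the replicate block, 3208 with the block after quantile normalization, 907 without activated replicate 2 to 3066 without control replicate 2, and 2822, 2787 and 3528 with the block without pair 1, 2 and 3. Median centring split them into 1342 higher and 518 lower, against 1034 and 796. Among the 8 genes, Mir133a-2 was at -0.52 with the block without pair 2, Mir206 at 1.13 with the block without pair 3 and H19 at -0.11 after loess. Leaving out single arrays gave 1.22 to 1.61 for Mir206, 1.40 to 2.22 for Mir133b, -0.08 to 0.27 for Mir1a-1, -0.12 to 1.36 for Mir133a-2, 0.48 to 1.06 for Mir1a-2, -0.66 to 1.76 for Mir133a-1, 0.27 to 0.68 for H19 and -1.45 to -0.23 for Meg3. Mir1a-1hg was at -0.064 with the block without pair 2. Myod1 turned to -0.19 after quantile normalization (with and without the block), -0.31 after loess, -0.045 with the block without pair 3 and -0.22 to 0.52 without single arrays. Hdac4 turned to -0.054 after quantile normalization (with and without the block), -0.044 after loess and -0.017 to 0.29 without single arrays. The causes were not tested. The filter on a mean of at least 4 left out Mir206, Mir1a-1, Mir1a-2 and Mir133a-2. The number of arrays and the dim level of several microRNA loci limit the precision.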
